A study of Homo sapiens with 6 samples.

Results

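The interferon response was followed through 9 classical interferon-stimulated genes in a long-read knockdown experiment on Calu-6, a human cell line that was established from a lung carcinoma. These were ISG15, IFI6, IFI27, IFITM1, IFITM2, IFITM3, BST2, IFIT1 and IFIT3, and they were chosen by symbol as genes that cells switch on after double-stranded RNA or interferon. The count table held 10072 genes, of which 8168 were annotated, and all 9 interferon-stimulated genes had at least 1 row. One group (siControl, 3 libraries) received a nonsilencing siRNA, and the other (siDelta2-4, 3 libraries) received an siRNA across the junction of exon 1 and exon 5 in the TERT splice variant Delta 2-4. Both were transfected with the lipid reagent RNAiMAX at 10 nM and collected after 48 h. An untransfected library was not among the 6, so a response that both siRNAs share cannot be seen in these comparisons. The labels called the cells wild type, whereas the column names carried the study's word for cells with an empty vector. The study calls the libraries of a group biological replicates, but the labels do not say whether they came from separate cultures, and the p-values measure only the spread between these libraries.

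Cells detect foreign double-stranded RNA with sensors such as RIG-I, MDA5 and TLR3. These act through adaptors and the factor IRF3 to switch on interferon beta, which leaves the cell, binds its receptor and activates JAK1 and TYK2. The kinases phosphorylate transcription factors that join IRF9 in a complex, which binds a short promoter element, the interferon-stimulated response element. Synthetic siRNAs can start this cascade in some cells, depending on their length, sequence and ends. For that reason interferon-stimulated genes are a usual off-target check in a knockdown. The members have separate jobs. ISG15 is a ubiquitin-like protein that is joined to other proteins, IFIT1 and IFIT3 bind viral RNA as a complex, the IFITM proteins block virus entry at membranes, and BST2 (tetherin) holds budding virus on the cell surface. IFI6 and IFI27 are small membrane proteins of the same family.

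Library totals ran from 1037468 to 1309241 counts. On the first principal component of log2 CPM (counts scaled to a common library size, with TMM factors), which held 42.9% of the variance, the smallest siControl library lay at -0.36, between the other siControl libraries (-16.9 and -15.2) and the siDelta2-4 libraries (8.71 to 13.8). TERT, the targeted gene, had 0 rows. Every row of the table had a siDelta2-4 count, while 1887 genes had no siControl count, so a gene listed at 0 in siControl could not have been listed with the groups exchanged. Of the epithelial markers, the keratins KRT8 and KRT18 gave 824 and 1124 reads, whereas KRT7 gave 41, EPCAM 13 and KRT19 1, and CDH1 had no row. Leukocyte markers summed to between 2.81 and 4.60 CPM in each library, with PTPRC and CD3E in no row, and none of the 4 endothelial markers had a row. Of 4 mesenchymal markers, CDH2 and ZEB1 had no row and FN1 gave 2 reads. The 4th, VIM (vimentin), had 132 ± 12.0 CPM in siControl and 160 ± 7.07 CPM in siDelta2-4 (SD, n = 3 each; edgeR adjusted p = 0.149). Its values did not overlap between groups, as for 26.0% of the 3888 genes tested below.

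None of the 9 interferon-stimulated genes was called higher or lower in siDelta2-4, and nearly all of their reads came from the pair IFITM3 and IFITM2. The 95% intervals of IFITM3 and IFITM2 reached no higher than 1.35-fold, and the other 7 genes had too few reads for the test. In edgeR's quasi-likelihood test over all 3888 genes that passed the filter on low counts, 504 genes (13.0%) were called at an adjusted p under 0.1, 272 as higher and 232 (5.97%) as lower in siDelta2-4. The 3888 genes include unannotated loci, whose models all had at least 5 counts in each siDelta2-4 library, whereas all members are annotated. With annotated genes alone, 358 of 2367 were called. IFITM2 and IFITM3 were the only members that passed the filter, and 0 of these 2 were called. Neither had an unadjusted p under 0.05, and DESeq2 also called 0. A count from 2 genes is too small to set against the share of 13.0%. With no filter on low counts, 10072 genes were tested and 416 (4.13%) were called. All 9 members were then tested, 0 were called, and 1 of them, BST2, had an unadjusted p under 0.05. The CPM values of the groups overlapped for IFITM2 and IFITM3, and they did not overlap for 26.0% of the 3888 genes. Again, 2 genes are too few to set against that share. The other 7 members also overlapped, but they had few reads and are not among the 3888 genes. In bulk libraries, fewer cells with a transcript and less of it per cell cannot be told apart.

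**Figure D1:**
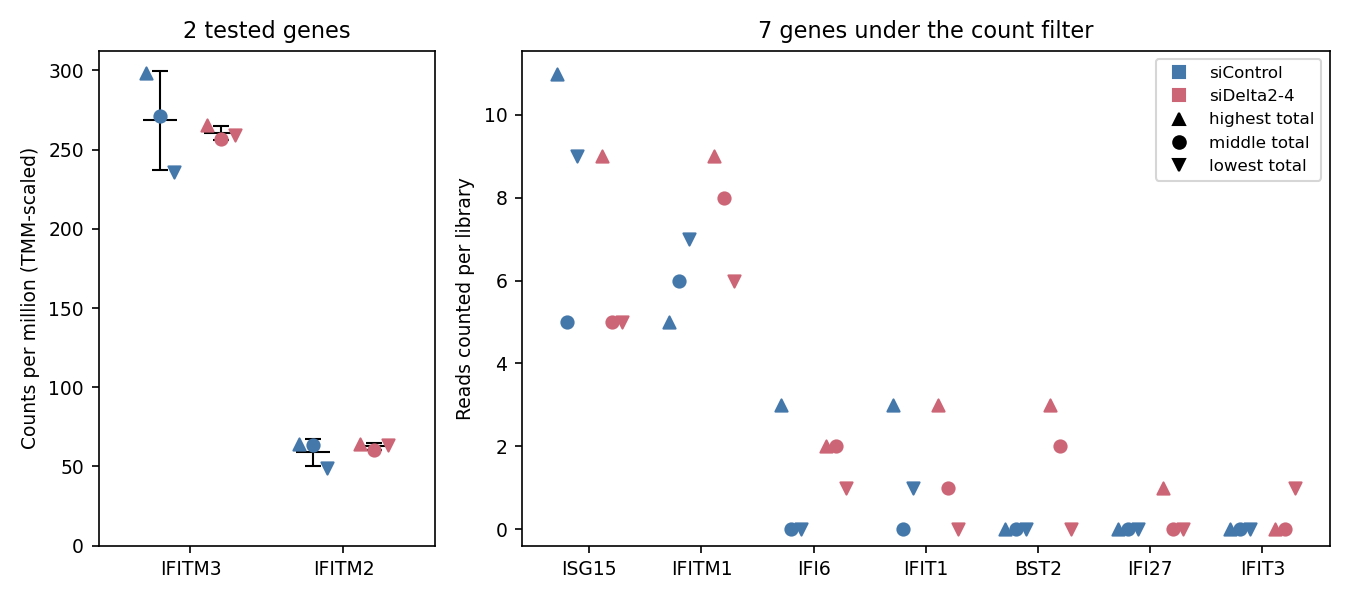
Values of the 9 interferon-stimulated genes in each library (triangles and circles mark the highest, middle and lowest total count of a group; blue siControl, red siDelta2-4), as CPM with mean and SD for IFITM3 and IFITM2 on the left and as reads per library for the other 7 on the right. The colours overlap in every gene, and IFI27, BST2 and IFIT3 have all 3 siControl points at 0.

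IFITM3, which restricts virus entry from endosomes, was the most abundant member. Ordered from the largest to the smallest library of a group, as in all such lists here, siControl had 306, 283 and 246 counts of it, against 346, 316 and 277 for siDelta2-4. These correspond to 298, 271 and 236 CPM in siControl and to 265, 257 and 259 CPM in siDelta2-4. The siControl libraries thus lay on both sides of the narrow siDelta2-4 range. The siControl mean was 268 ± 31.5 CPM and the siDelta2-4 mean 261 ± 4.49 CPM (SD, n = 3 each). The log2 fold change of siDelta2-4 over siControl was -0.04 ± 0.11 (SE), with an edgeR adjusted p of 0.854. The 95% interval of that log2 fold change ran from -0.26 to 0.17. Removing the trend on transcript length or scaling by library totals alone turned the sign to above 0, without a call.

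IFITM2, which lies in the same gene cluster and has a similar role, was also measured well enough for the test. Counts were 66, 66 and 51 in siControl and 84, 74 and 68 in siDelta2-4. In CPM these were 64.3, 63.3 and 48.8 in siControl against 64.5, 60.1 and 63.7 in siDelta2-4. Only the smallest siControl library stood below the other 5. Means were 58.8 ± 8.66 and 62.8 ± 2.31 CPM (SD, n = 3 each). The log2 fold change was 0.09 ± 0.16 (SE; edgeR adjusted p = 0.787), and the 95% interval ran from 0.845-fold to 1.35-fold. Without that library the fit gave a log2 fold change of -0.047, again without a call.

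**Figure D2:**
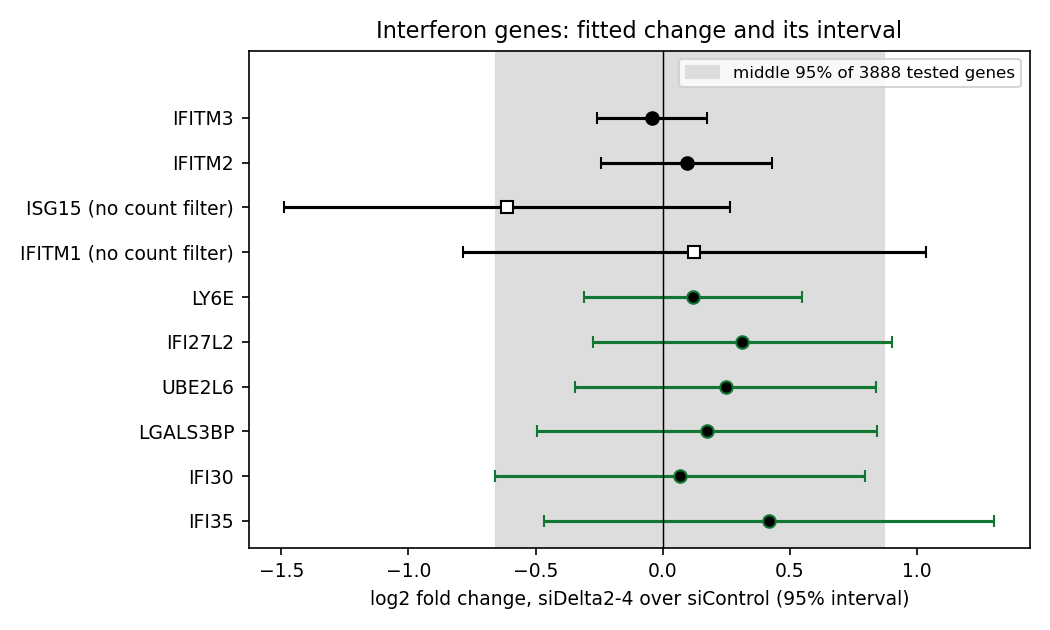
Log2 fold change of siDelta2-4 over siControl with its 95% interval from edgeR for IFITM3, IFITM2 and the 6 tested pathway genes, and from the fit without the count filter for ISG15 and IFITM1 (open squares); the grey band is the middle 95% of all 3888 tested genes, from -0.66 to 0.87. All 10 intervals cover 0, and IFITM3 has the narrowest.

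The IFITM genes form a cluster on chromosome 11 (GRCh38, Gencode coordinates). IFITM2 (ENSG00000185201.18) spans chr11:303655-309397 and IFITM1 (ENSG00000185885.17) chr11:310041-315272, both on the plus strand, and IFITM3 (ENSG00000142089.17) spans chr11:319676-329475 on the minus strand. The start sites of the main IFITM2 and IFITM3 models were 13045 bases apart. Their coding sequences were 93.9% identical over 396 aligned bases, and each was less like IFITM1, with 86.6% for IFITM2 and 89.9% for IFITM3. Reads of such near copies could be assigned to the wrong gene, so the split between IFITM2 and IFITM3 is uncertain. Those 2 genes together held between 94.1% and 96.9% of all member reads in each library.

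Within the pair, IFITM2 took 17.7%, 18.9% and 17.2% of the reads in siControl and 19.5%, 19.0% and 19.7% in siDelta2-4. Each of the 3 siDelta2-4 shares was above each of the siControl shares, by a margin that was smallest between the middle libraries of both groups. Those 2 shares were 18.91% in siControl and 18.97% in siDelta2-4, of 349 and 390 reads. Each share rested on 297 to 430 reads and so carries counting error, which was not computed. Mean shares were 17.9% ± 0.887 and 19.4% ± 0.384 (SD, n = 3 each). The difference was 1.46 points, with an exact two-sided permutation p of 0.1, which is the smallest that 3 libraries against 3 can give. The test therefore could not reach 0.05.

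Nearly all reads of each gene fell on a single annotated model. IFITM3-201 took 1736 of the 1774 IFITM3 reads (97.9%), and IFITM2-205 took 397 of the 409 IFITM2 reads (97.1%). IFITM3-207, with 27 reads, is annotated as a non-stop decay transcript. It starts 19 bases further downstream than IFITM3-201, and its last exon starts 5 bases downstream. IFITM3-224 (8 reads) shares these differences and ends its first exon 4 bases later. IFITM2-201 (12 reads) starts 290 bases downstream of IFITM2-205. These minor models thus differ from the main ones by a few bases at splice sites and by the start. In the test over 6768 transcript models, of which 468 (6.91%) were called, 0 of the 2 tested member models were called, with 0 called by DESeq2 as well. Log2 fold changes were -0.03 ± 0.10 (SE) for IFITM3-201 and 0.13 ± 0.17 for IFITM2-205, with edgeR adjusted p of 0.941 and 0.749. All 14 models of the 9 members were annotated ones. Every unannotated model in the table had at least 5 counts in each siDelta2-4 library. IFI6, IFI27, BST2, IFIT1 and IFIT3 had fewer reads than that in every library, so for them no unannotated model could be listed.

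**Figure D3:**
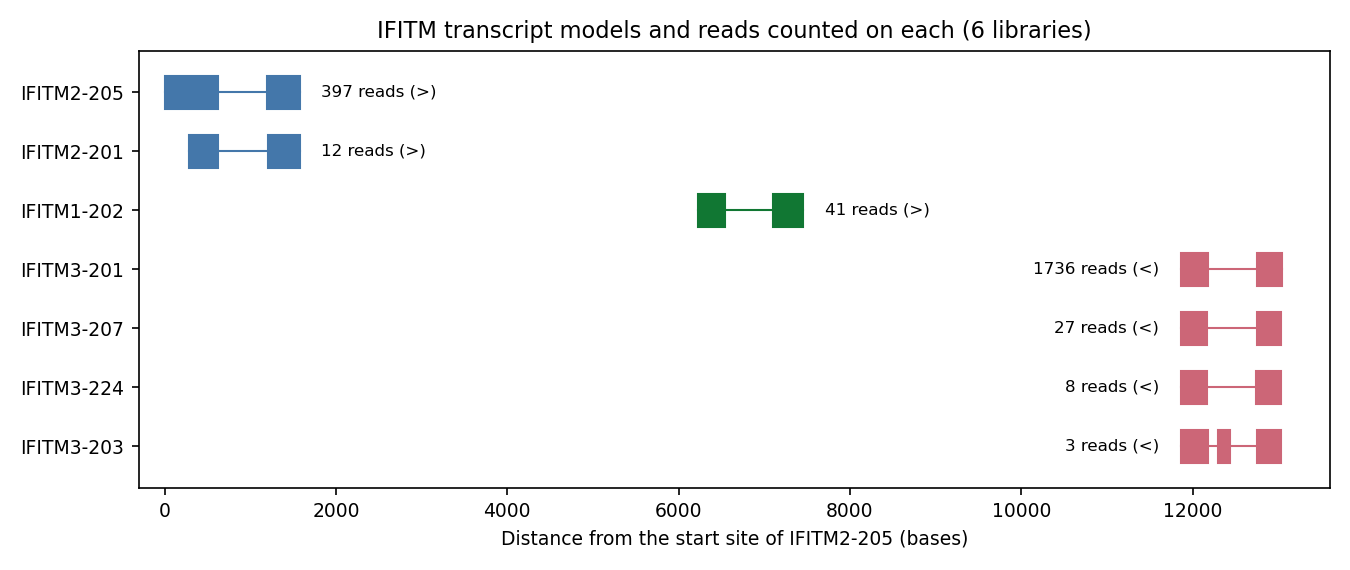
Exons (boxes) and introns (lines) of the counted IFITM2, IFITM1 and IFITM3 models, drawn to scale by distance in bases from the start of IFITM2-205, with the reads summed over the 6 libraries beside each model and arrowheads for the strand. IFITM3-201 with 1736 reads and IFITM2-205 with 397 reads hold most of the counts of the cluster.

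IFITM1, the member of the cluster found mostly at the cell surface, was far less abundant. Its counts were 5, 6 and 7 in siControl and 9, 8 and 6 in siDelta2-4. All 41 reads matched IFITM1-202. The reads of each group were also divided by its summed library totals, without TMM factors, and the ratio of siDelta2-4 to siControl was 1.16, with an exact 95% counting interval from 0.596 to 2.27. Such intervals cover counting error only. In the unfiltered edgeR fit the log2 fold change was 0.12 ± 0.46 (SE; adjusted p = 0.957). The 95% interval, from -0.78 to 1.03 on the log2 scale, shows how little 41 reads can resolve.

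ISG15 (ENSG00000187608.10, chr1:1001138-1014540, plus strand) was counted 11, 5 and 9 times in siControl, against 9, 5 and 5 times in siDelta2-4. All 44 reads matched ISG15-203. In CPM these were 10.7, 4.79 and 8.62 for siControl against 6.91, 4.06 and 4.68 for siDelta2-4. The siControl library of the middle total, at 4.79 CPM, lay within the siDelta2-4 range. The siDelta2-4 to siControl ratio of reads per group total was 0.687, with a counting interval from 0.358 to 1.30. The unfiltered edgeR fit gave a log2 fold change of -0.61 ± 0.45 (SE), with a 95% interval from -1.49 to 0.26 and an adjusted p of 0.698.

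The remaining 5 members were counted so rarely that single reads decide their values. IFI6 (ENSG00000126709.16, chr1:27666064-27672212, minus strand) was counted 3, 0 and 0 times in siControl, against 2, 2 and 1 times in siDelta2-4. Its ratio per group total was 1.51, with a counting interval from 0.293 to 9.70. IFIT1 (ENSG00000185745.10, chr10:89392546-89406487, plus strand) gave 3, 0 and 1 reads in siControl, against 3, 1 and 0 in siDelta2-4. Its ratio per group total was 0.904 (0.168 to 4.85). Neither interval excludes a severalfold change in either direction.

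BST2 (ENSG00000130303.14, chr19:17402939-17405630, minus strand) was listed at 0 in all 3 siControl libraries and had 3, 2 and 0 counts in siDelta2-4, all on BST2-201. That is 1.40 CPM of the summed siDelta2-4 totals, without TMM factors (exact Poisson 95% interval 0.456 to 3.27). The count of 0 in siControl allows up to 3 reads over that group, or 0.931 CPM on the same scale. The exact Poisson 95% interval, as used for siDelta2-4, reached 1.15 CPM in siControl, so the intervals of the groups overlap. In the unfiltered edgeR fit the unadjusted p was 0.042 and the adjusted p 0.377. Because every row of the table had a siDelta2-4 count, a gene with 5 reads in siControl and 0 in siDelta2-4 would have had no row, and this comparison has no counterpart in the other direction.

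IFI27 (ENSG00000165949.13, chr14:94104836-94116695, plus strand) and IFIT3 (ENSG00000119917.15, chr10:89327307-89377473, plus strand) each had 1 read in all. The IFI27 read lay in the siDelta2-4 library with the highest total, on IFI27-204, a model annotated as a retained intron. The IFIT3 read lay in the siDelta2-4 library with the lowest total, on IFIT3-202. IFIT1 and IFIT3 lie within the annotated span of LIPA, a lysosomal lipase gene on the opposite strand with 27 reads. Whether the counting used strand is not given in the sources used here. The other annotated genes that overlap a member had no row.

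Levels of different genes were compared per kilobase of the models counted. The counts are of long reads per model, so this division lowers genes with long models. Mean levels over the 6 libraries, in CPM per kilobase, were 433 for IFITM3 and 60.9 for IFITM2. They were 10.4 for ISG15 and 9.07 for IFITM1, then 1.43 for IFI6, 0.654 for BST2 and 0.271 for IFIT1. IFIT3 and IFI27, with 1 read each, stood last at 0.0653 and 0.0524. Among the 8168 annotated genes of the table, 95.6% had a lower level than IFITM3, 89.4% lower than IFITM2 and 76.7% lower than ISG15. By contrast, 27.0% had a lower level than IFIT1 and 4.87% lower than IFI27. These shares hold for the scale per kilobase and were not computed in CPM. IFITM3 and IFITM2 were separated from each other and from the rest beyond their spread. ISG15 and IFITM1 were not, since ISG15 had 12.6 ± 4.72 and 8.19 ± 2.35 CPM per kilobase in siControl and siDelta2-4, and IFITM1 had 8.65 ± 1.37 and 9.49 ± 0.986 (SD, n = 3 each), so that their order was exchanged between groups. Of the last 5 members, IFI6 had 1.67 ± 0.458 CPM per kilobase in siDelta2-4, above IFIT1 with 0.241 ± 0.271 (SD, n = 3 each). That gap came largely from the division by length, over 818 bases for IFI6 and 4302 for IFIT1. In CPM they had 1.37 ± 0.374 and 1.04 ± 1.17 in siDelta2-4 (SD, n = 3 each), within their spread. In siControl both genes had libraries at 0. By CPM alone, with no division by length, IFITM3 and IFITM2 also led, with means of 264 and 60.8 CPM. The order of rarer members changed, since IFIT1 with 1.17 CPM then stood above BST2 with 0.655 CPM.

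**Figure D4:**
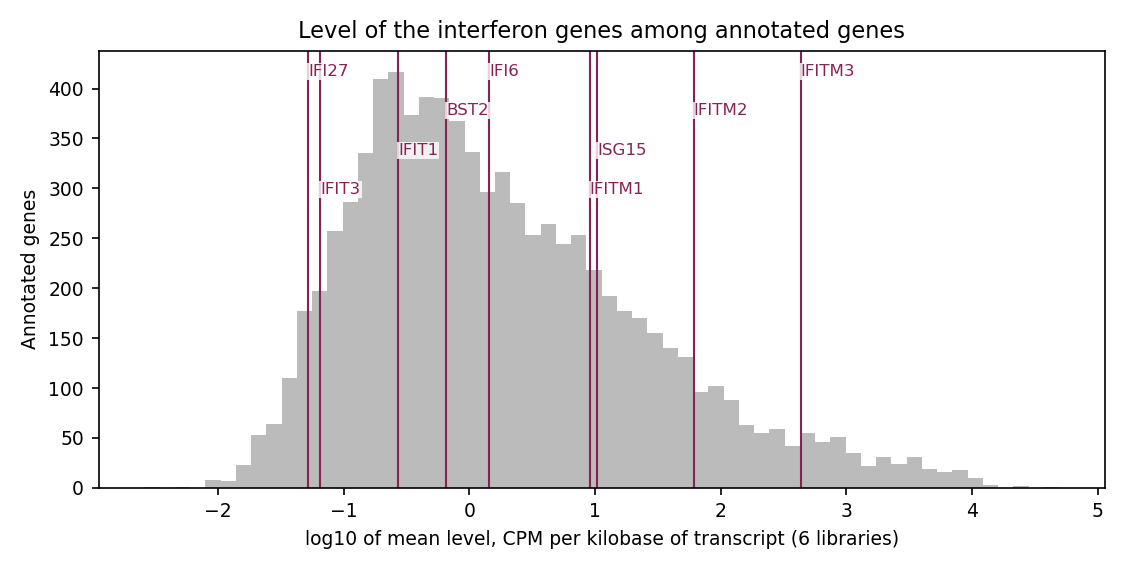
Histogram of the mean level of the 8168 annotated genes, as log10 of CPM per kilobase over the 6 libraries, with a vertical line at each of the 9 interferon-stimulated genes. IFITM3 lies in the upper tail at 433 CPM per kilobase, and IFIT3 and IFI27 lie in the lower tail.

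Summed over the 9 genes, 2291 reads were counted. As a share of all counts they came to 0.0331% ± 0.00269 for siControl and 0.0343% ± 0.000742 for siDelta2-4 (SD, n = 3 each). The 7 members other than IFITM2 and IFITM3 gave 108 reads together, with 11 to 27 in each library. These sums are dominated by IFITM3 and were not tested.

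Of 106 other listed genes of the interferon system, 36 had a row and 6 passed the filter. Of all protein-coding genes in the annotation, 30.7% had a row. None of the 6 was called, and 0 had an unadjusted p under 0.05. The share called over all tested genes was 13.0%, and 6 genes are too few to set against it. With no filter, 0 of the 36 were called and 0 had an unadjusted p under 0.05. DESeq2 also called 0, but none of the 6 received an adjusted p from it. All 6 log2 fold changes were above 0, with a median of 0.21 beside 0.027 for all tested genes. Each gene's own 95% interval covered 0.

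From the top of the pathway, none of the 8 listed interferon genes, including IFNB1, had a row. Of 9 receptors and Janus kinases, 5 had a row, with 32 reads between them. IFNAR1, a subunit of the receptor for type I interferons, had 5 reads in siControl and 9 in siDelta2-4, while IFNAR2 had 1 read in all. JAK1, JAK2 and TYK2 had no row. Of 11 nucleic acid sensors only EIF2AK2, the kinase PKR that double-stranded RNA activates, had a row, with 1 read. RIGI, IFIH1 and TLR3 had none. Of 9 adaptors and kinases, IKBKE, MYD88 and TANK had a row, with 36 reads together. Among them TANK, a scaffold of the TBK1 kinase complex, gave 2 reads in each siControl library, against 4, 3 and 8 in siDelta2-4. Its unfiltered edgeR adjusted p was 0.608. TANK was the only pathway gene with a row whose CPM did not overlap between groups. That share was 26.0% over the 3888 tested genes, which do not include TANK. Among the transcription factors, IRF1 had 3 reads in all, IRF2 had 9 and IRF9, the DNA-binding part of the complex named above, had 4. A gene with no row cannot be read as unexpressed.

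At the receiving end, the enzyme that carries ISG15 to its targets, UBE2L6, had 14.5 ± 1.93 CPM in siControl and 17.1 ± 1.85 CPM in siDelta2-4 (SD, n = 3 each). Its log2 fold change was 0.25 ± 0.29 (SE; edgeR adjusted p = 0.655). The other listed genes of ISG15 conjugation and removal, UBA7, HERC5, HERC6, TRIM25 and USP18, had no row. IFI27L2, a paralogue of IFI27, had 15.4 ± 3.85 and 19.3 ± 2.33 CPM, with a log2 fold change of 0.31 ± 0.29 (edgeR adjusted p = 0.552). Unlike IFI27 itself, this paralogue was counted in every library.

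Among 44 other interferon-induced effectors, 19 had a row and 4 were tested. LY6E, a surface protein that impairs coronavirus entry, had 29.9 ± 1.52 CPM in siControl and 32.3 ± 3.25 CPM in siDelta2-4 (log2 fold change 0.12 ± 0.21, edgeR adjusted p = 0.789). LGALS3BP, a secreted glycoprotein, had 11.6 ± 2.87 and 13.1 ± 2.29 CPM (0.17 ± 0.33, edgeR adjusted p = 0.801). The remaining pair were IFI30, a lysosomal thiol reductase, with a log2 fold change of 0.07 ± 0.36 (edgeR adjusted p = 0.941), and IFI35, with 0.42 ± 0.43 (edgeR adjusted p = 0.602). OAS1, OAS2, MX1, MX2, IFIT2, RSAD2, IFI44 and CXCL10, which are among the usual markers of a strong response, had no row. OAS3 had 2 reads in all, and OASL and IFI44L had 1 each.

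**Figure D5:**
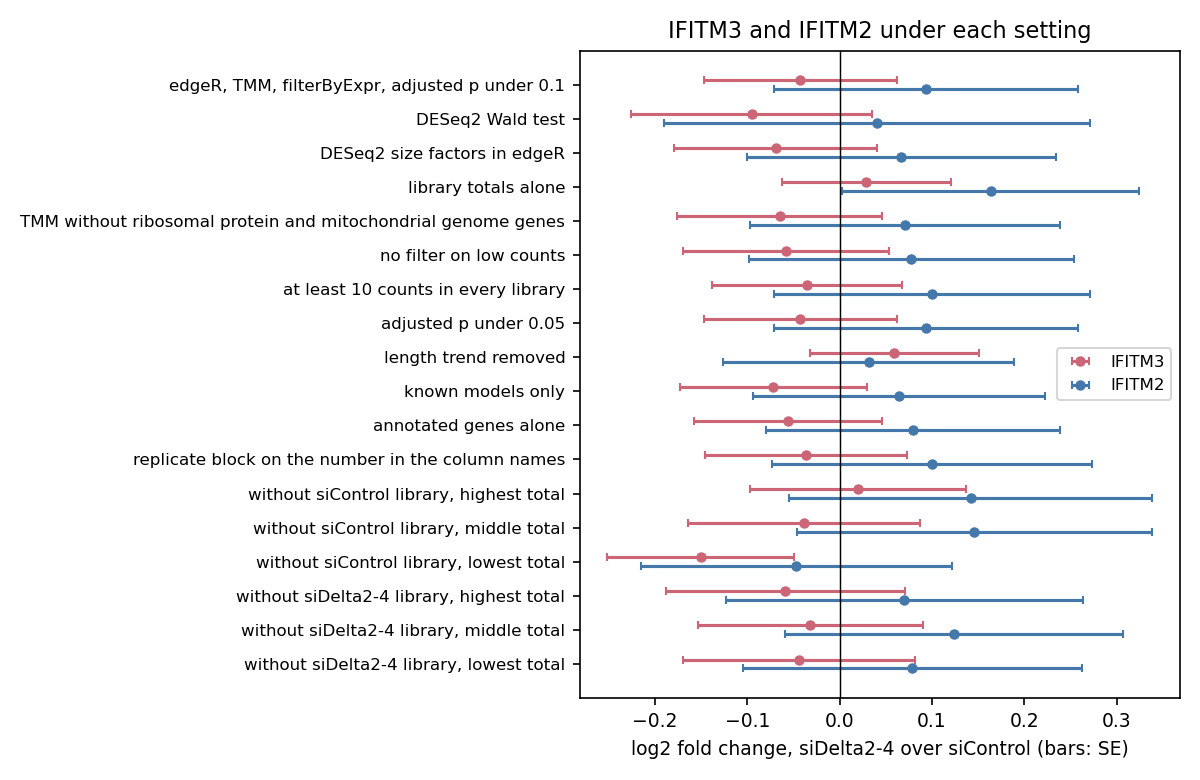
Log2 fold change of siDelta2-4 over siControl for IFITM3 (red) and IFITM2 (blue), with bars of 1 SE, under the main setting and each of 17 alternatives. IFITM2 ranges from -0.047 to 0.16 and IFITM3 from -0.15 to 0.059, and none of these settings gave a call.

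Among the genes whose profile was most like that of the tested members over the 6 libraries were HARS1 (Pearson r = 0.983) and RNF141 (0.974), out of 1987 annotated protein-coding genes compared. Of these, 32 had an r above 0.9. HARS1, a histidyl-tRNA synthetase, had 25.3, 23.0 and 9.58 CPM in siControl and 23.0, 18.7 and 18.7 CPM in siDelta2-4, lowest in the same siControl library as IFITM3 and IFITM2. The points are 6 libraries that share their scaling, and the values are a description.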

How the data were processed

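Long-read PCR-cDNA libraries of Calu-6 cells were analysed as deposited. The authors made raw counts of reads per transcript model, with minimap2 2.14 and SAMtools 1.13 named in the submitters' processing notes and TranscriptClean and TALON on GRCh38 with Gencode in the study's methods; the deposited counts are not normalised. The siRNA in a column name gave its group, and libraries are told apart by total count. Depth was 1037468 to 1309241 counts. Counts were summed per gene and tested in edgeR 4.0.16 (R 4.3.3; filterByExpr, TMM, quasi-likelihood, 2 groups, no covariate, Benjamini-Hochberg over all tested genes, adjusted p under 0.1), with limma 3.58.1 loaded by edgeR and DESeq2 1.42.0 as an alternative. CPM used TMM-scaled totals, except that counting ratios, Poisson intervals and limits for a count of 0 used summed library totals without TMM factors. Each SE was derived from the quasi-likelihood F of the gene. Counting intervals are exact, at 95%, and a count of 0 allows 3 counts. The scripts were tested on simulated counts.

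The members, pathway lists and alternatives were chosen with earlier results of these data known. Named were all 9 members, called pathway genes, the 2 most counted tested genes per role, overlapping opposite-strand genes, the 3 genes most alike, and up to 3 models per tested member. Other genes named were chosen after their values were seen. Some genes under this rule and these lists are not reported here. Transcript usage could not be tested, because 0 members had at least 2 tested models.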

Additional observations from a re-analysis of the deposited data

How the results depend on the processing

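Under all 17 alternatives for genes and all 10 for transcript models, 0 members were called, and 0 pathway genes were called in the 17. The threshold of 0.05 on the same fit could add no call, and DESeq2 gave no pathway gene an adjusted p. Only the settings with no filter on low counts tested more than 2 members. The settings tried were scaling by totals alone, by DESeq2 size factors or by TMM after dropping ribosomal protein genes and mitochondrially encoded ones; the DESeq2 test; a threshold of 0.05; filters set to none or to 10 counts per library; a fit with the length trend removed; known models; annotated genes; the replicate block; and each library left out. For IFITM3 the log2 fold change turned to 0.029 with library totals alone (edgeR adjusted p = 0.890) and to 0.059 with the length trend removed (0.771). Leaving out 1 library gave -0.15 to 0.020 for IFITM3, above 0 without the siControl library of the highest total, and -0.047 to 0.15 for IFITM2, below 0 without the siControl library of the lowest total. Without the siControl library of the middle total, the log2 fold changes of LGALS3BP and IFI30 were below 0, and their ranges were -0.0020 to 0.34 and -0.11 to 0.17. The range was 0.13 to 0.97 for IFI35, lowest without the siControl library of the lowest total and highest without that of the middle total, and 0.12 to 0.50 for IFI27L2. The cause was not tested. Over the alternatives, adjusted p ran from 0.574 to 0.938 for IFITM2 and from 0.312 to 0.962 for IFITM3. The difference in the IFITM2 share ran from 1.08 to 1.95 points with 1 library left out.

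The labels give no number that pairs libraries across groups. Same-numbered columns had deviations correlated at 0.039, -0.136 and -0.084. With a replicate block on that number, log2 fold changes were 0.10 for IFITM2 and -0.037 for IFITM3, 0 members were called, 299 genes were called in all, and the exact p of the IFITM2 share was 0.25, the smallest it allows. Over all genes, the 504 calls became 279 with DESeq2, 304 at an adjusted p under 0.05, 252 with known models alone, and 194 to 1041 with 1 library left out, the last without the siControl library of the lowest total.

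Depth limits 7 of the 9 members, which had 108 reads together, and genes without a siDelta2-4 count had no row.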
